A study of Mus musculus with 12 samples.

Results

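The tubulin genes described here were 4 α-tubulin genes (Tuba1a, Tuba1b, Tuba1c and Tuba4a) and 6 β-tubulin genes (Tubb2a, Tubb2b, Tubb3, Tubb4b, Tubb5 and Tubb6). They were taken by symbol from a list of family members, drawn up with earlier results of these data known but with no threshold on a measured value, and each matched a single Ensembl identifier among the 49671 genes counted in every library. RNA-seq was performed in NIH 3T3 cells, which are immortalized mouse embryonic fibroblasts, and asked how depletion of Lap2 alters the response to serum. All cells had been transfected with siRNA, either the AllStars negative control (control siRNA treated cells) or a siRNA of a single sequence that targets every isoform of Lap2, the product of Tmpo (Lap2-depleted cells). They were kept in 0.3% FBS (serum-starved) or received 15% FBS for 45 min after starvation (serum-stimulated), which gave 4 groups of 3 libraries. The libraries were made from total RNA depleted of ribosomal RNA. With a single Lap2 siRNA, the consequences of losing Lap2 and other effects of that siRNA cannot be told apart. Nothing in the labels says that the 3 libraries of a group came from separate cultures. The paper states that RNA was extracted from triplicates, but not whether these were separate cultures or experiments. The p-values thus measure only the spread between these libraries, which may be technical.

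α- and β-tubulin form the heterodimer from which microtubules are built, and mammals encode each subunit in several genes, called isotypes, whose proteins co-assemble. Tuba1b, Tubb4b and Tubb5 are broadly expressed and are abundant in dividing cells, Tuba1a, Tubb2a, Tubb2b and Tubb3 are known for high levels in neurons, and Tubb6 is a widely expressed divergent β isotype. New subunits are folded by prefoldin, the chaperonin CCT and a set of tubulin cofactors. Cells also adjust their tubulin mRNAs to the pool of free dimers: when that pool is large, the factor TTC5 recognises the first residues of tubulin as it leaves the ribosome and, through SCAPER and the CCR4-NOT deadenylase, starts decay of the mRNA being translated.

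The start of the coding sequence, which specifies the residues read by this autoregulation, is shown for 6 of the members to let their codons be compared. The sequences are from GENCODE M21 transcripts, and capitals mark the 9 bases that follow the start codon. Tuba1b and Tuba1c had the same 12 bases as Tuba1a, and Tubb4b the same as Tubb3. The last codon of each run is the same in the 4 α genes and, in another form, in the 5 β genes read, and Tubb6 was not included.
Tuba1a: atgCGTGAGTGC
Tuba4a: atgCGCGAGTGC
Tubb2a: atgCGCGAGATC
Tubb2b: atgCGAGAGATC
Tubb3: atgAGGGAGATC
Tubb5: atgAGGGAAATC

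Promoter windows from RefSeq (assembly GRCm38.p6, from 250 bases before to 50 bases after the annotated start) matched 8 of the 10 members, all but Tubb2b and Tubb6. Those of 4 members are shown: Tuba1c, the α gene with the largest serum response, and Tuba1a, Tubb2a and Tubb3, which were lower in Lap2-depleted cells in both serum conditions. Capitals mark the CCAAT motif, the TATA box in the form TATAAA and the GC box in the form GGGCGG, on either strand, so that a match on the opposite strand appears as its reverse complement, and no match overlapped another.
Tuba1c (chr15:99029641-99029940, plus strand): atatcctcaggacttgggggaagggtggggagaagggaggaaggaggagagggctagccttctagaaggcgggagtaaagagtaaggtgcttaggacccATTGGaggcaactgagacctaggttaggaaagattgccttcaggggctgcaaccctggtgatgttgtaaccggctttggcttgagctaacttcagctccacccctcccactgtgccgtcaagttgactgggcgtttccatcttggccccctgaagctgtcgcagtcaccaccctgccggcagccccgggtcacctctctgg
Tuba1a (chr15:98953452-98953751, minus strand): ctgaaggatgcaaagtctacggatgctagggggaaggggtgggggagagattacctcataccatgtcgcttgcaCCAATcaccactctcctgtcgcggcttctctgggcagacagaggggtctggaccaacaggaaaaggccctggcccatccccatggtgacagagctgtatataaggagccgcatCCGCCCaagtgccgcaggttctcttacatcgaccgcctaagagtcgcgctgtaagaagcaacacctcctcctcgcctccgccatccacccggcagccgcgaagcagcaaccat
Tubb2a (chr13:34077959-34078258, minus strand): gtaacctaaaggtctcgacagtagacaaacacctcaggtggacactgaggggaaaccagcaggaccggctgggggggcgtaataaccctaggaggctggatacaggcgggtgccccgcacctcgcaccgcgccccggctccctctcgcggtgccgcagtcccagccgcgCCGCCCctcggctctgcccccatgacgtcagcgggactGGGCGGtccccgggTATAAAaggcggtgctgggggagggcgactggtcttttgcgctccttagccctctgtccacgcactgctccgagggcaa
Tubb3 (chr8:123411303-123411602, plus strand): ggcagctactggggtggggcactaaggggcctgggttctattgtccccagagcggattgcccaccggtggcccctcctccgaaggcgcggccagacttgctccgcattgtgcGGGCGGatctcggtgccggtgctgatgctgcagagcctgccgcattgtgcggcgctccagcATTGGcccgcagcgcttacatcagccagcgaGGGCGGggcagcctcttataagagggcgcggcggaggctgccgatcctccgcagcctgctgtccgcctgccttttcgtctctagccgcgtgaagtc

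A CArG box, the element bound by SRF, was searched for on both strands and was in 0 of the 8 windows, which include neither Tubb2b nor Tubb6, and 1.63% of all 32851 promoter windows of this length held one. CCAAT was in 5 of the 8 (Tuba1a, Tuba1c, Tubb3, Tubb4b and Tubb5) against 37.4% of all windows, with 5 copies in Tubb4b. GGGCGG was in 7 of the 8, all but Tuba1c, against 35.7% of all windows. TATAAA was in 2 (Tubb2a and Tubb4b) against 13.6%. These are matches of letters within 300 bases, and elements outside this window were not examined. By ChIP-seq in mouse dermal fibroblasts, the paper places Tuba1c among genes close to an MRTF-A peak that holds an SRF motif. It counts Tuba1c among established targets of the MRTF-A/SRF pathway. The position of that peak relative to the window shown here was not examined.

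All 10 members passed the filter on low counts (more than 1 count in 3 or more libraries) and were among the 18668 genes tested. Total counts were 18816519 to 23457484 per library in serum-starved and 21191927 to 26265253 in serum-stimulated control siRNA treated cells, and 18026298 to 20535682 and 19230387 to 22838900 in Lap2-depleted cells. The members held 0.238% to 0.284% of these counts. Values are given as normalized counts, that is, counts scaled by the TMM factors of edgeR to a common library size. Fold changes are log2FC with a standard error (SE) from edgeR's quasi-likelihood fit of all 4 groups, and a gene was called at an adjusted p under 0.05 over all tested genes.

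The labels were checked before the tubulin genes were read. Tmpo lay between 2775 and 3264 normalized counts in the 6 libraries with control siRNA and between 606.7 and 1175 in the 6 with Lap2 siRNA. The immediate-early gene Fos lay between 51.77 and 78.28 in the 6 serum-starved libraries and between 5367 and 8114 in the 6 serum-stimulated ones. Gapdh passed the edgeR test in 0 of the 5 contrasts (log2FC from -0.20 to 0.08), but it passed with DESeq2 in 3, at -0.15 for serum in Lap2-depleted cells, -0.14 for Lap2 siRNA in 15% FBS and -0.23 for the interaction (adjusted p = 0.016, 0.041 and 0.02). In edgeR with total counts it was -0.37 for serum in Lap2-depleted cells and 0.19 for Lap2 siRNA in 0.3% FBS (adjusted p = 6.9e-06 and 0.013). All 10 fibroblast markers were tested, led by Fn1 with a mean of 180750 normalized counts. Of 10 neuronal markers, examined because Tubb3 is a usual marker of neurons, 4 were tested, 2 were at 0 in every library, and the neuron-specific Rbfox3 averaged 0.19 and Dcx 0 normalized counts. Snap25 was the most abundant of them (mean 144.8), and the 10 together summed to 159.3, 150.5, 158.7 and 142.8 in serum-starved and serum-stimulated control and then Lap2-depleted cells. The most abundant epithelial, skeletal muscle and immune or endothelial markers were Krt14 (12.26), Tnnt3 (68.95) and Cd68 (39.51).

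Replicate 1 of the serum-starved Lap2-depleted cells differed more from the other libraries of its group (chi-square per degree of freedom over genes 20.23 and 18.98) than these did from each other (2.573), or than any pair in the other groups (2.828 to 7.618). Without it, the number of members called was 7 and 7 for serum, 8 and 7 for Lap2 siRNA and 7 for the interaction, and no member was called in the opposite direction. Of the 18434 genes tested without it, 34.4% and 35.1% were called for serum, 38.1% and 28.1% for Lap2 siRNA and 19.1% for the interaction.

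Serum stimulation of control siRNA treated cells raised 7 of the 10 tubulin genes and lowered 0, where 29.5% of all tested genes were called, 15.6% higher and 13.9% lower. The increases ranged from 0.17 for Tubb5 to 2.02 for Tubb6 on the log2 scale, and the median of the 10 genes was 0.23 against -0.01 over all tested genes. In Lap2-depleted cells serum raised 6 and lowered 1 (Tuba1b), with a median of 0.52 against 0.00, where 33.2% of all genes were called (18.3% higher, 14.9% lower). Between 0.3% and 15% FBS the 3 libraries of each group did not overlap for 7 members with control siRNA and 9 with Lap2 siRNA, as for 42% and 41.7% of all tested genes.

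The serum values depend on the scaling between libraries. Scaling to total counts moved the median log2FC of all genes by -0.21 with control siRNA and by -0.23 with Lap2 siRNA, by 0.11 for Lap2 siRNA in 0.3% FBS and by 0.09 in 15% FBS, and upper-quartile scaling moved the serum medians by -0.10 and -0.11. With total counts, 4 members were called higher with serum and 0 lower in control siRNA treated cells, and 5 higher and 3 lower in Lap2-depleted cells, where this scaling called 8.74% of all genes higher and 31.3% lower in the former and 8.88% and 31.9% in the latter. For Lap2 siRNA it called 25.1% of all genes higher and 14.1% lower in 0.3% FBS, and 18.6% and 8.99% in 15% FBS. Tuba1c, Tuba4a, Tubb2a and Tubb6 with control siRNA, and Tuba1c, Tubb2a, Tubb2b, Tubb3 and Tubb6 with Lap2 siRNA, were called higher under every scaling tried.

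Lap2 depletion in 0.3% FBS lowered 4 tubulin genes (Tuba1a, Tubb2a, Tubb2b and Tubb3) and raised 4 (Tuba1b, Tuba1c, Tuba4a and Tubb4b), where 36.5% of all genes were called, 18.6% lower and 17.8% higher. In 15% FBS it lowered 7 and raised 0, where 23.4% were called, 12.1% lower and 11.4% higher. The median log2FC of the members was -0.03 in 0.3% FBS (0.01 over all genes) and -0.28 in 15% FBS (0.02 over all genes). The groups did not overlap for 9 and 8 members, as for 43.4% and 38.8% of all tested genes. In the interaction test, which compares the serum responses with the 2 siRNAs, 3 members responded more strongly in Lap2-depleted cells (Tubb2a, Tubb2b and Tubb3) and 3 less strongly or in the opposite direction (Tuba1b, Tuba1c and Tubb4b), where 13.6% of all genes were called, 7.09% with a higher and 6.51% with a lower response. The comparisons share groups, so the counts are not independent of each other.

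**Figure D1:**
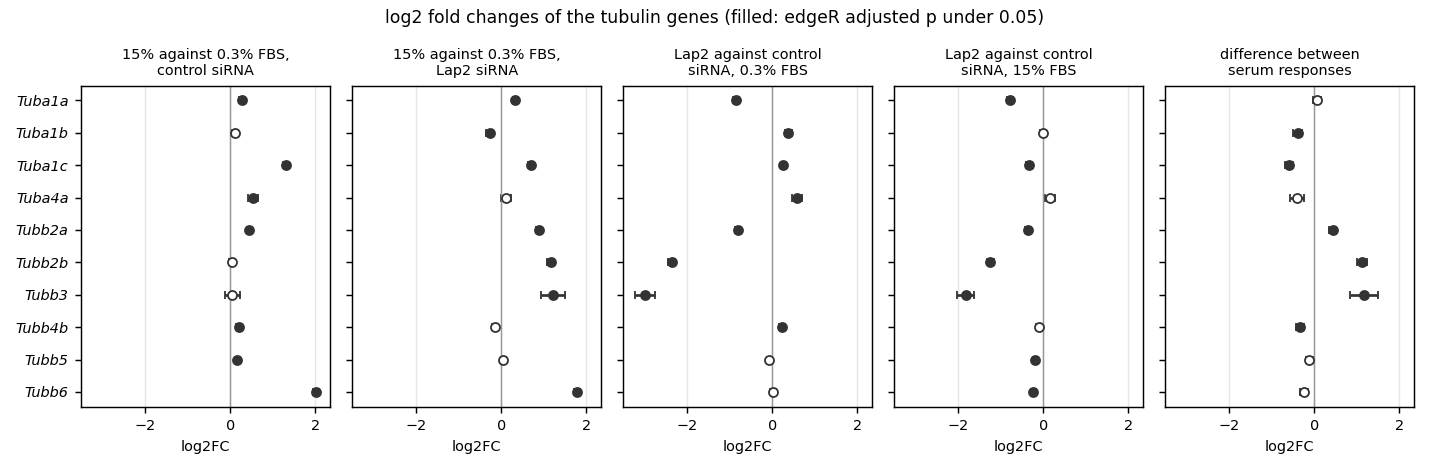
log2FC (x axis) of the 10 tubulin genes (y axis) in 5 comparisons, one per panel, with bars of 1 standard error and filled symbols for an edgeR adjusted p under 0.05. Tubb2b and Tubb3 lie farthest to the left with Lap2 siRNA (-2.36 and -3.0 in 0.3% FBS), and Tubb6 and Tuba1c farthest to the right with serum in control siRNA treated cells (2.02 and 1.30).

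Per kilobase of exon, Tubb5 was the most abundant member in every group, at 358.7 and 402.5 CPM (counts scaled to library size) per kilobase in control siRNA treated cells and at 342.4 and 354 in Lap2-depleted cells (0.3% and 15% FBS). In serum-starved control siRNA treated cells it was followed by Tuba1a (248.8), Tuba1b (137.1), Tubb2a (75.79) and Tubb4b (72.84), of which only the last pair overlapped between libraries. Tubb2b (47.73), Tuba1c (34.48) and Tubb6 (27.78) came next, and Tuba4a (3.717) and Tubb3 (2.706) were lowest, with libraries that overlapped. Serum moved Tubb6 from the eighth to the fourth place (112.7), where its libraries did not overlap with those of Tuba1b above or Tubb2a below. In serum-starved Lap2-depleted cells Tuba1b (178.4) stood above Tuba1a (138.3) with no overlap, the reverse of the order in the other 3 groups. Tubb3 was last in every group and fell to 0.334 CPM per kilobase in serum-starved Lap2-depleted cells.

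**Figure D2:**
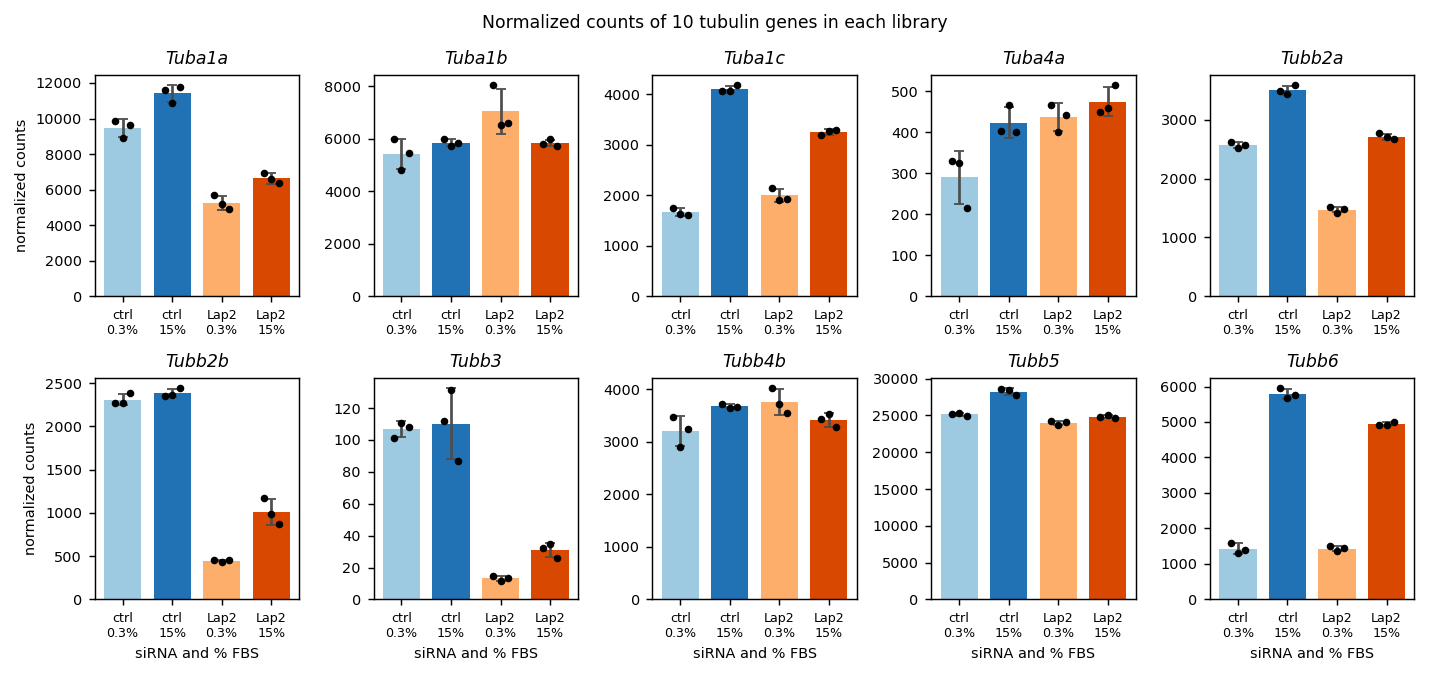
Normalized counts (y axis, from 0, a separate scale for each gene) of the 10 tubulin genes in the 4 groups (x axis, siRNA and % FBS), with bars for the mean, error bars for the SD of 3 libraries and a point for each library. For Tuba1a, Tubb2a, Tubb2b and Tubb3 all 6 libraries of Lap2-depleted cells lie below the control siRNA libraries of the same serum condition.

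Tuba1a (ENSMUSG00000072235, minus strand of chromosome 15 of mm10, 98949837 to 98953703) is the α isotype best known from developing neurons and was the most abundant α gene in control siRNA treated cells. Its libraries held 9873, 8902 and 9608 normalized counts in 0.3% FBS and 11582, 10897 and 11775 in 15% FBS. In Lap2-depleted cells they held 5685, 5194 and 4896, and 6942, 6610 and 6348. The 6 libraries with Lap2 siRNA were thus all lower than the 6 with control siRNA, also across serum conditions. The log2FC of Lap2 siRNA was -0.85 in 0.3% FBS (SE 0.07, edgeR adjusted p = 1.7e-12) and -0.78 in 15% FBS (SE 0.06, edgeR adjusted p = 2.9e-11), or 55.6% and 58.1% of control. Serum raised it by 0.27 with control siRNA (edgeR adjusted p = 0.0011) and 0.33 with Lap2 siRNA (edgeR adjusted p = 9.9e-05), and scaling to total counts left neither called (0.06 and 0.10). The difference between these responses, 0.06, had a 95% interval of -0.12 to 0.24.

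Tuba1b (ENSMUSG00000023004, chromosome 15, minus strand, 98931425 to 98934565), a broadly expressed α isotype, took the opposite direction in serum-starved cells. With control siRNA it had 5991, 4824 and 5454 normalized counts in 0.3% FBS and 5983, 5728 and 5832 in 15% FBS, and these groups overlapped. With Lap2 siRNA it had 8045, 6533 and 6588 in 0.3% FBS and 5786, 5978 and 5736 in 15% FBS. The serum-starved Lap2-depleted cells were above all other groups, with replicate 1 the highest. Lap2 siRNA raised Tuba1b in 0.3% FBS (log2FC 0.38, SE 0.07, edgeR adjusted p = 9.3e-05, and 0.29 without replicate 1 of the serum-starved Lap2-depleted cells), while in 15% FBS the log2FC was -0.00 (95% interval -0.15 to 0.14). Serum lowered it in Lap2-depleted cells (log2FC -0.27, edgeR adjusted p = 0.0038) and the response with control siRNA was 0.11 (edgeR adjusted p = 0.31). These responses differed by -0.38 (SE 0.11, edgeR interaction test, adjusted p = 0.011).

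Tuba1c (ENSMUSG00000043091, chromosome 15, plus strand, 99029891 to 99038110) had the largest serum response of the α genes. With control siRNA it rose from 1751, 1634 and 1605 to 4068, 4060 and 4183 normalized counts, 2.47-fold (log2FC 1.30, SE 0.06, edgeR adjusted p = 1e-17). With Lap2 siRNA it rose from 2150, 1914 and 1929 to 3188, 3269 and 3299, 1.63-fold (log2FC 0.70, SE 0.06, edgeR adjusted p = 7.8e-11). The Lap2-depleted cells thus started above and ended below the control siRNA treated cells, with no overlap in either condition. In 0.3% FBS the log2FC of Lap2 siRNA was 0.26 (edgeR adjusted p = 0.0013), while in 15% FBS it was -0.34 (edgeR adjusted p = 0.00011), and the serum response was smaller by 0.60 in Lap2-depleted cells (log2 difference -0.60, SE 0.09, edgeR interaction test, adjusted p = 9.9e-06).

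Tuba4a (ENSMUSG00000026202, chromosome 1, minus strand, 75214228 to 75219865), an α gene whose protein is made without the C-terminal tyrosine of other α isotypes, was the least abundant α gene. It had 329.7, 324.9 and 215.7 normalized counts in 0.3% FBS and 402.8, 466.9 and 400.4 in 15% FBS with control siRNA. Lap2-depleted cells had 467.3, 399.5 and 441.9 in 0.3% FBS and 449.3, 458.1 and 515 in 15% FBS. The serum-starved control siRNA treated cells were thus below the other 3 groups without overlap, with replicate 3 the lowest, and the other groups overlapped. Serum raised it with control siRNA (log2FC 0.54, SE 0.12, edgeR adjusted p = 5e-04) and Lap2 siRNA raised it in 0.3% FBS (log2FC 0.58, SE 0.12, edgeR adjusted p = 0.00015). The serum responses differed by -0.42, which did not pass the test (edgeR interaction test, adjusted p = 0.095). Without replicate 1 or replicate 2 of the serum-starved control siRNA treated cells it did, at -0.54 in each case (edgeR adjusted p = 0.041 and 0.042). Stk16, with a mean of 1431 normalized counts, overlaps Tuba4a on the opposite strand and held 34.6% of its 50-base windows, so reads of the pair could be mixed if the strand was not used in counting.

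Tubb5 (ENSMUSG00000001525, chromosome 17, minus strand, 35833921 to 35838306), the main β isotype of dividing cells, had the highest counts of the 10, and its log2FC lay between -0.19 and 0.17 in the 5 contrasts. Its libraries held 25233, 25333 and 24949 normalized counts in serum-starved and 28531, 28468 and 27729 in serum-stimulated control siRNA treated cells, and 24285, 23732 and 24069 and then 24802, 25032 and 24680 in Lap2-depleted cells. No 2 groups compared overlapped, although the means spanned only 24029 to 28243. Serum raised it with control siRNA (log2FC 0.17, SE 0.05, edgeR adjusted p = 0.019), a call lost with total counts, where the value was -0.04, with upper-quartile scaling (0.07), and without replicate 1 or 2 of the serum-stimulated control siRNA treated cells (edgeR adjusted p = 0.074 and 0.073). In 15% FBS it was lowered by Lap2 siRNA (log2FC -0.19, edgeR adjusted p = 0.011), a call lost with total counts (-0.10) and without replicate 2 of the serum-stimulated control siRNA treated cells (edgeR adjusted p = 0.052).

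Tubb4b (ENSMUSG00000036752, chromosome 2, minus strand, 25222160 to 25224702), another broadly expressed β isotype, resembled Tuba1b in its calls with Lap2 siRNA but not in its calls with serum. It had 3480, 2910 and 3234 normalized counts in 0.3% FBS and 3715, 3644 and 3669 in 15% FBS with control siRNA. The libraries with Lap2 siRNA held 4018, 3711 and 3546 and then 3434, 3537 and 3277. The serum-starved Lap2-depleted cells lay above the serum-starved control siRNA treated cells without overlap. Lap2 siRNA raised Tubb4b in 0.3% FBS (log2FC 0.23, SE 0.07, edgeR adjusted p = 0.0064), and in 15% FBS the value was -0.11 (edgeR adjusted p = 0.29). Its serum response was 0.20 with control siRNA (edgeR adjusted p = 0.023) and -0.14 with Lap2 siRNA (edgeR adjusted p = 0.12), which differed by -0.34 (SE 0.09, edgeR interaction test, adjusted p = 0.014). The increase with control siRNA was the least certain call: it was -0.01 with total counts and 0.10 with upper-quartile scaling, neither called, and was not called without replicate 2 of the serum-starved or replicate 1 or 2 of the serum-stimulated control siRNA treated cells (edgeR adjusted p = 0.14, 0.075 and 0.054). The decrease with Lap2 siRNA was called with total counts (-0.37), with upper-quartile scaling (-0.25) and without replicate 3 of the serum-starved Lap2-depleted cells (-0.20, edgeR adjusted p = 0.038).

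Tubb2a (ENSMUSG00000058672, chromosome 13, minus strand, 34074274 to 34078007) and Tubb2b (ENSMUSG00000045136, the same strand, 34126748 to 34130466) are neighbouring genes for near-identical β isotypes that are abundant in brain. Tubb2a had 2630, 2519 and 2573 normalized counts in 0.3% FBS and 3483, 3443 and 3591 in 15% FBS with control siRNA. With Lap2 siRNA it had 1512, 1423 and 1489, and then 2769, 2708 and 2669. The 4 groups did not overlap, and serum in Lap2-depleted cells brought it from 57.3% of the matched control to 77.5%. The log2FC of Lap2 siRNA was -0.80 in 0.3% FBS (SE 0.06, edgeR adjusted p = 1.7e-12), and serum-stimulated cells had -0.37 (SE 0.06, edgeR adjusted p = 1.5e-05). Serum raised it by 0.45 with control siRNA (edgeR adjusted p = 2.8e-07) and by 0.88 with Lap2 siRNA (edgeR adjusted p = 1.5e-13), a difference of 0.43 (SE 0.09, edgeR interaction test, adjusted p = 0.00045).

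Tubb2b changed more. It had 2272, 2275 and 2381 normalized counts in 0.3% FBS and 2357, 2369 and 2441 in 15% FBS with control siRNA, where the serum response of 0.05 had a 95% interval of -0.10 to 0.19. In Lap2-depleted cells it had 452.7, 437.9 and 455.3 in 0.3% FBS, 19.4% of control, and 1174, 989.3 and 872.4 in 15% FBS, 42.4% of control. Both groups of Lap2-depleted cells were below all control siRNA libraries and did not overlap with each other. The log2FC of Lap2 siRNA was -2.36 in 0.3% FBS (SE 0.08, edgeR adjusted p = 8.4e-21) and -1.24 in 15% FBS (SE 0.08, edgeR adjusted p = 4.9e-14). Serum raised Tubb2b 2.25-fold in Lap2-depleted cells (log2FC 1.17, edgeR adjusted p = 3e-13), and the responses differed by 1.12 (SE 0.11, edgeR interaction test, adjusted p = 7.3e-09).

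Tubb3 (ENSMUSG00000062380, chromosome 8, plus strand, 123411424 to 123422015), the β isotype used as a marker of neurons, was low in all groups and fell furthest. With control siRNA it had 101.1, 110.9 and 107.9 normalized counts in 0.3% FBS and 111.8, 131.6 and 86.99 in 15% FBS, and these overlapped. With Lap2 siRNA it had 14.69, 11.44 and 13.39 in 0.3% FBS, from 16, 11 and 13 counted reads, and 32.34, 34.99 and 26.09 in 15% FBS. The 6 libraries with Lap2 siRNA were all lower than the 6 with control siRNA, and the serum-starved ones were lowest. Lap2 siRNA lowered it to 12.4% of control in 0.3% FBS (log2FC -3.0, SE 0.24, edgeR adjusted p = 4.2e-12) and to 28.3% in 15% FBS (log2FC -1.83, SE 0.21, edgeR adjusted p = 2.8e-08). Serum raised it in Lap2-depleted cells (log2FC 1.22, SE 0.29, edgeR adjusted p = 0.00094) and the response with control siRNA was 0.05 (95% interval -0.29 to 0.40). The responses differed by 1.17 (SE 0.34, edgeR interaction test, adjusted p = 0.016), a call lost without replicate 2 of the serum-starved or of the serum-stimulated Lap2-depleted cells (1.06 and 1.08, edgeR adjusted p = 0.057 and 0.056). Of the 4 neuronal markers tested, 0 were called lower with Lap2 siRNA in 0.3% or 15% FBS, where 18.6% and 12.1% of all genes were. In serum-starved control siRNA treated cells Snap25 averaged 153.8 normalized counts. Gap43, Stmn2 and Elavl3 averaged 2.93, 2.25 and 0.289, where a decrease could hardly be called. In 0.3% FBS 1 of the 4 was called higher, where 17.8% of all genes were. This was Elavl3, named after its values were seen, which had 0, 0.866 and 0 normalized counts with control siRNA against 5.51, 4.16 and 5.15 with Lap2 siRNA (edgeR adjusted p = 0.042, or 0.063 without replicate 1 of the serum-starved Lap2-depleted cells).

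Tubb6 (ENSMUSG00000001473, chromosome 18, plus strand, 67390717 to 67402749), a divergent β isotype, had the largest serum response of the 10 genes. It rose from 1595, 1305 and 1384 to 5950, 5672 and 5760 normalized counts with control siRNA, 4.06-fold (log2FC 2.02, SE 0.07, edgeR adjusted p = 2.9e-22). With Lap2 siRNA it rose from 1494, 1368 and 1443 to 4921, 4911 and 4997, 3.44-fold (log2FC 1.78, SE 0.07, edgeR adjusted p = 1.2e-20). The serum-starved groups overlapped, with a log2FC of 0.01 for Lap2 siRNA (95% interval -0.13 to 0.14), and the serum-stimulated groups did not. Lap2 siRNA lowered it in 15% FBS by 0.23 (log2FC -0.23, SE 0.07, edgeR adjusted p = 0.0085), a call lost with total counts (-0.14). The difference between the serum responses, -0.24, did not pass the test (edgeR interaction test, adjusted p = 0.10) but did with DESeq2 (-0.26, adjusted p = 0.03) and without replicate 1 of the serum-starved control siRNA treated cells (-0.35, edgeR adjusted p = 0.0079) or replicate 1 or 2 of the serum-starved Lap2-depleted cells (-0.24 and -0.30, edgeR adjusted p = 0.044 and 0.047).

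The makeup of the tubulin mRNAs was expressed as the share of each gene in the counts per kilobase of its family, in which the scaling between libraries cancels. Among the α genes, Tuba1a made up 58.7% ± 1.06 and 55.7% ± 0.738 in control siRNA treated cells in 0.3% and 15% FBS, and 38.1% ± 1.21 and 44.1% ± 1.28 in Lap2-depleted cells (SD, n = 3 each). Tuba1b made up 32.3% ± 1.30, 27.5% ± 0.515, 49.0% ± 1.38 and 37.3% ± 0.722 (SD, n = 3 each) in the same order. The shares of Tuba1a and Tuba1b moved in opposite directions with Lap2 siRNA and with serum in Lap2-depleted cells, and both were lower with serum in control siRNA treated cells. Tuba1c rose with serum from 8.14% ± 0.409 to 15.8% ± 0.337 with control siRNA and from 11.4% ± 0.342 to 17.1% ± 0.593 with Lap2 siRNA (SD, n = 3 each). For none of these 3 genes did the libraries of any 2 groups that were compared overlap. Tuba1a, Tuba1b and Tuba1c share long stretches of sequence, so these shares also depend on how reads that fit several of them were counted.

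Among the β genes, Tubb5 made up 61.3% ± 1.21, 53.4% ± 0.579, 67.3% ± 0.749 and 56.2% ± 0.454 (SD, n = 3 each; control siRNA in 0.3% and 15% FBS, then Lap2 siRNA). Tubb6 rose with serum from 4.74% ± 0.413 to 15.0% ± 0.276 and from 5.49% ± 0.145 to 15.3% ± 0.331 (SD, n = 3 each). Tubb2b made up 8.15% ± 0.280 and 6.55% ± 0.171 in control siRNA treated cells but 1.82% ± 0.0349 and 3.32% ± 0.468 in Lap2-depleted cells (SD, n = 3 each). Tubb2a was at 12.9%, 13.7%, 8.54% and 12.7%, and Tubb4b at 12.4%, 11.1%, 16.8% and 12.3%, in the same order. Tubb3 reached at most 0.488% in any library.

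**Figure D3:**
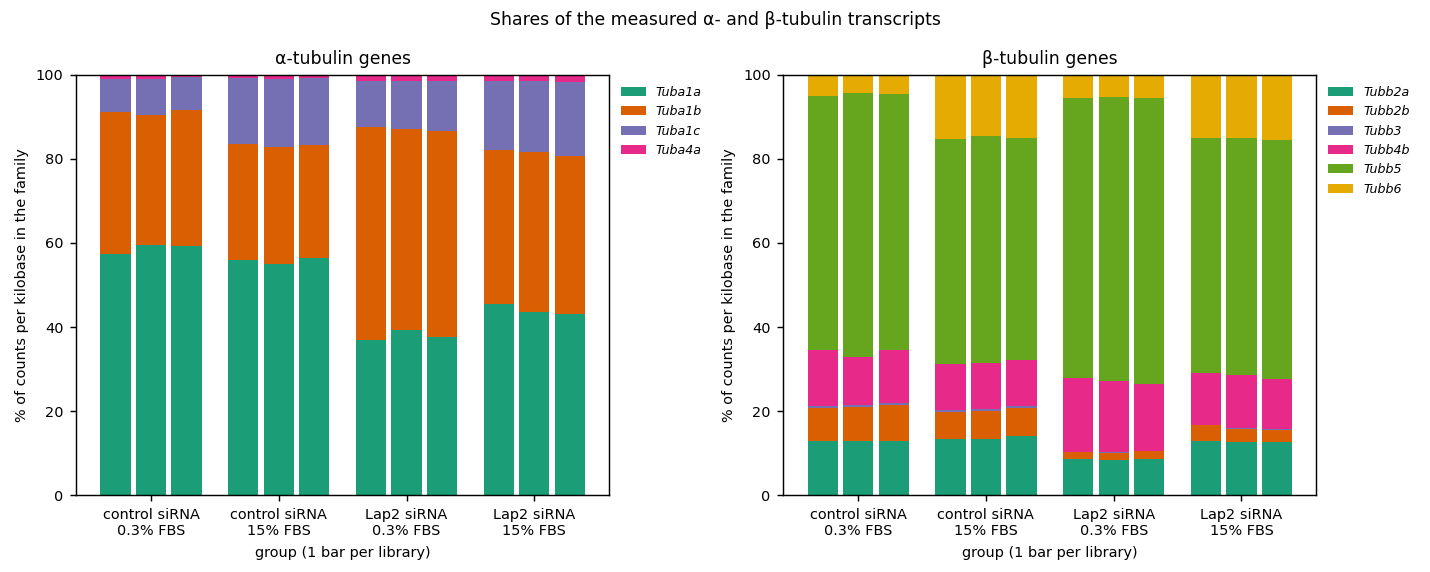
Share of each gene (y axis, percent of the counts per kilobase of its family) in each of the 12 libraries (x axis, grouped by siRNA and % FBS), for the α genes on the left and the β genes on the right. Tuba1a falls from 58.7% to 38.1% with Lap2 siRNA in 0.3% FBS, and Tubb6 rises from 4.74% to 15.0% with serum in control siRNA treated cells.

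Summed per kilobase, the 10 genes came to 1010 ± 38.8 CPM per kilobase in serum-starved and 1293 ± 16.7 in serum-stimulated control siRNA treated cells, and to 872.4 ± 44.8 and 1025 ± 14.95 in Lap2-depleted cells (SD, n = 3 each). The sum was thus 1.28-fold and 1.18-fold higher with serum and 0.864 and 0.793 of control with Lap2 siRNA, and no 2 groups compared overlapped. With scaling to total counts these ratios were 1.11, 1.00, 0.932 and 0.842, and the groups overlapped for serum in Lap2-depleted cells and for Lap2 siRNA in 0.3% FBS. The ratio of summed α to summed β transcripts was 0.724 ± 0.0372, 0.714 ± 0.0201 and 0.714 ± 0.0534 in the first 3 groups and 0.628 ± 0.00444 in serum-stimulated Lap2-depleted cells (SD, n = 3 each), which lay below all others. In bulk samples, fewer cells of a type and less RNA per cell cannot be told apart.

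Members moved in sets across the 12 libraries, which share the 4 conditions. Tubb2b and Tubb3 had a Pearson r of 0.99 in log2 CPM, and each had 0.96 with Tuba1a and 0.87 and 0.82 with Tubb2a. Tubb6 and Tuba1c had 0.97, and Tuba1b and Tubb4b 0.85, while Tuba1b had -0.73 with Tubb2b. Of 10438 genes outside the tubulin family that averaged 100 normalized counts or more, those most like Tubb6 were Nuak2 (r = 0.998), Mafk and Srf (0.997 each), the last of which encodes serum response factor. For Tuba1c they were Rheb, Syde2 and Bag2 (0.994 each), for Tubb2b Smoc2 (0.997), Mmp9 and Itga9 (0.996 each), for Tubb3 Rnd3 (0.992), Lix1l (0.991) and Tmem64 (0.99), and for Tubb2a Sh3gl1 (0.993), Prss23 (0.992) and Cnn3 (0.99). For Tuba1a they were Erg28 (0.995), St3gal3 (0.992) and Shisa4 (0.991), for Tubb5 Tbl2 (0.971), Faap100 (0.969) and Tent5b (0.962), for Tuba4a Rsl1d1 (0.932), Timm10 (0.925) and Pbdc1 (0.921), for Tuba1b Spc24 (0.93), Alg3 (0.921) and Stub1 (0.916), and for Tubb4b Pkmyt1 and Chkb (0.848 each) and Clasrp (0.839). These correlations describe 12 libraries in 4 conditions and carry no p-value.

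How far each member can be told from its copies was measured as the share of its 50-base windows that also occur in transcripts of another gene of GENCODE M21. It was 75.5% for Tuba1a, 75.1% for Tuba1b and 52.7% for Tuba1c, shared with each other and with further gene models such as AC157548.1, Gm17383 and Gm3226 (18, 20 and 18 genes in all), 49.6% for Tubb2a and 36.9% for Tubb2b, mostly with each other, 41.3% for Tubb4b, mostly with the pseudogene Tubb4b-ps1, and 35.4% for Tuba4a, mostly with Stk16. It was 0.0892% for Tubb5, or 3 windows, and 0% for Tubb3 and Tubb6. The handling of reads that map to several genes is not given in the sources used here, so the division of counts among Tuba1a, Tuba1b, Tuba1c and these gene models, and between Tubb2a and Tubb2b, is uncertain. Gm49450, a gene model that spans Tuba1a and Tuba1b on the same strand, is not among the 49671 genes counted. Of the other tubulin genes, Tubb4a averaged 10.19 and Tubb4b-ps1 6.277 normalized counts, and Tuba8, Tuba3a, Tuba3b, Tubal3, Tubb1, Tubg2 and Tubb4b-ps2 less than 1.

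**Figure D4:**
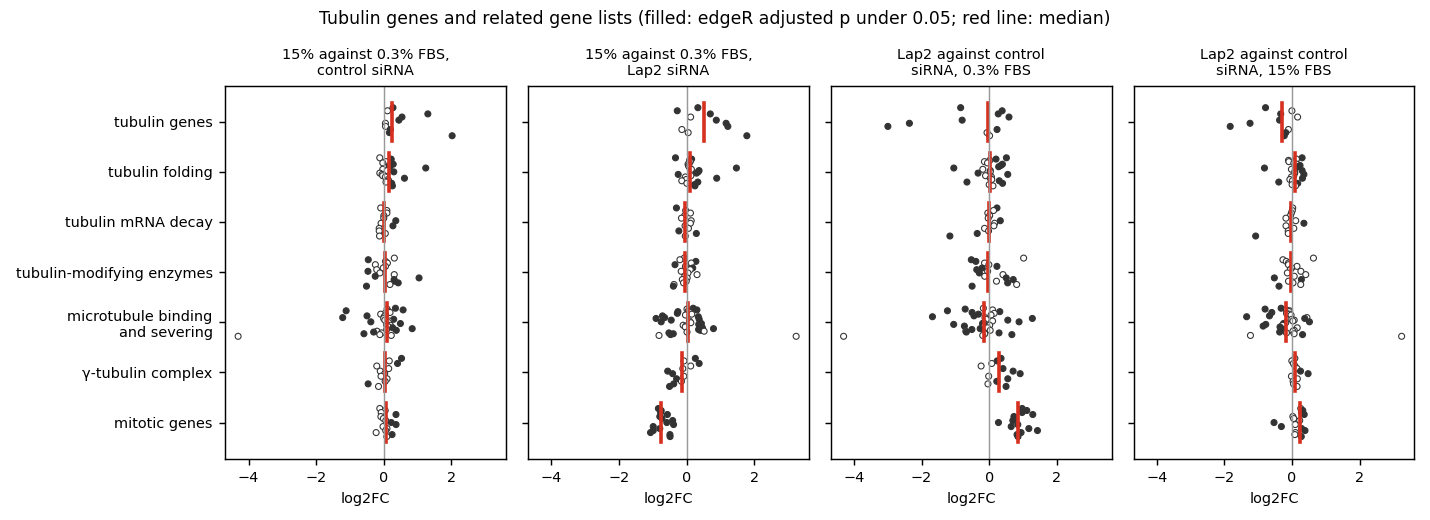
log2FC (x axis) of the tested genes of the tubulin list and 6 related lists (y axis, a row for each list) in 4 comparisons, with filled points for an edgeR adjusted p under 0.05 and a red line at the median of each list. All 15 mitotic genes lie to the right of 0 with Lap2 siRNA in 0.3% FBS (median 0.85) and to the left with serum in Lap2-depleted cells (median -0.75).

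The 23 genes for tubulin folding were all tested, and 47.8% were called in each serum comparison, where 29.5% and 33.2% of all genes were, and 47.8% and 39.1% with Lap2 siRNA, where 36.5% and 23.4% were. With serum, 11 were called higher and 0 lower in control siRNA treated cells and 9 higher and 2 lower in Lap2-depleted cells (medians 0.14 and 0.11), but when libraries were scaled to total counts 2 rose and 6 fell, and 2 and 9. That scaling called 8.74% and 8.88% of all genes higher with serum and 31.3% and 31.9% lower. Pdcl3, a phosducin-like partner of CCT, stood out with log2FC of 1.24 and 1.47 with serum (SE 0.07 each, edgeR adjusted p = 1e-16 and 6.1e-18), followed by the cofactor Tbcc with 0.61 and 0.89 (edgeR adjusted p = 1.1e-07 and 3.3e-11). With Lap2 siRNA, 8 were higher and 3 lower in 0.3% FBS and 7 and 2 in 15% FBS (medians 0.03 and 0.08). Without replicate 1 of the serum-starved Lap2-depleted cells the split in 0.3% FBS was 8 and 6 and the median -0.02. Pdcl3 (log2FC -1.05 and -0.82, edgeR adjusted p = 9.1e-14 and 1.7e-11) and Tbcel (-0.66 and -0.39, edgeR adjusted p = 1e-07 and 0.00052) were lower in both conditions, and the prefoldin subunit Pfdn6 was higher in both (0.55 and 0.35, edgeR adjusted p = 9.6e-06 and 0.0046). Tcp1, the most abundant (mean 8497 normalized counts), rose by 0.39 with Lap2 siRNA in 0.3% FBS (edgeR adjusted p = 1.7e-06).

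Of the 12 genes for tubulin mRNA autoregulation, the recognition factor Ttc5 changed most. Lap2 siRNA lowered it from 664.9 ± 59.6 to 295.7 ± 20.1 normalized counts in 0.3% FBS and from 608.5 ± 35.8 to 289.8 ± 53.1 in 15% FBS (SD, n = 3 each), with log2FC of -1.17 and -1.08 (SE 0.11 each, edgeR adjusted p = 8.3e-11 and 1.9e-09). Without replicate 1 of the serum-starved Lap2-depleted cells, 3 genes of this list were higher and 3 lower with Lap2 siRNA in 0.3% FBS, 1 and 3 in 15% FBS and 1 and 3 with serum in Lap2-depleted cells. Scaper fell in serum-starved cells (log2FC -0.36, edgeR adjusted p = 0.0017), where Cnot6 and Cnot1 were higher (0.33 and 0.23, edgeR adjusted p = 0.00019 and 0.0082). In all, 2 were higher and 2 lower in 0.3% FBS (33.3% called, against 36.5% of all genes) and 1 and 1 in 15% FBS (16.7%, against 23.4%), with medians of -0.01 and -0.03, and with serum 2 were higher and 0 lower in control siRNA treated cells, against 1 and 2 in Lap2-depleted cells. The serum shares called, 16.7% and 25%, were below those of all genes, 29.5% and 33.2%. With total counts the splits were 5 and 2, and 2 and 1, for Lap2 siRNA (medians 0.10 and 0.05) and 0 and 7, and 0 and 6, for serum. For Lap2 siRNA, 25.1% and 18.6% of all genes were higher and 14.1% and 8.99% lower under this scaling. With serum, 31.3% and 31.9% were lower.

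Of the 18 tubulin-modifying enzymes, all tested, 55.6% were called with Lap2 siRNA in 0.3% FBS and 16.7% in 15% FBS, where 36.5% and 23.4% of all genes were. In numbers, 4 were higher and 6 lower in 0.3% FBS and 1 and 2 in 15% FBS (medians -0.03 in each). Without replicate 1 of the serum-starved Lap2-depleted cells the splits were 4 and 4, and 2 and 2, and with total counts 5 and 4, and 3 and 2 (medians 0.08 and 0.06). Of all genes, total counts called 25.1% higher and 14.1% lower in 0.3% FBS, and 18.6% and 8.99% in 15% FBS. The glutamylase genes Ttll4 (log2FC 0.71, edgeR adjusted p = 1.5e-08) and Ttll7 (0.54, edgeR adjusted p = 3.5e-05) were higher in 0.3% FBS, and Vash2, a carboxypeptidase that removes the terminal tyrosine of α-tubulin, was lower in both conditions (-0.51 and -0.39, edgeR adjusted p = 1.5e-06 and 0.00031). The glycylase gene Ttll3 rose with serum in control siRNA treated cells (log2FC 1.04, edgeR adjusted p = 3.7e-07), and this response was smaller by 1.02 in Lap2-depleted cells (log2 difference -1.02, edgeR interaction test, adjusted p = 0.00043). With serum, 4 were higher and 4 lower in control siRNA treated cells and 2 and 2 in Lap2-depleted cells, against 1 and 8, and 0 and 8, with total counts and 4 and 6, and 1 and 3, without replicate 1 of the serum-starved Lap2-depleted cells. These were 44.4% and 22.2% of the list, against 29.5% and 33.2% of all genes. For serum, total counts called 31.3% and 31.9% of all genes lower and 8.74% and 8.88% higher.

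Of 35 genes for microtubule binding and severing, 34 were tested, and 52.9% and 44.1% were called with Lap2 siRNA in 0.3% and 15% FBS, where 36.5% and 23.4% of all genes were. With Lap2 siRNA, 6 were higher and 12 lower in 0.3% FBS and 3 and 12 in 15% FBS, with medians of -0.17 and -0.16. With total counts the splits were 10 and 11, and 5 and 10 (medians -0.06 and -0.08), and without replicate 1 of the serum-starved Lap2-depleted cells they were 7 and 12, and 4 and 15 (medians -0.09 and -0.17). Under total counts 25.1% and 18.6% of all genes were higher with Lap2 siRNA and 14.1% and 8.99% lower. Dpysl3, a tubulin-binding protein of the CRMP family, had the lowest value of the called genes in both (log2FC -1.68 and -1.34, SE 0.08 each, edgeR adjusted p = 1.2e-17 and 8.6e-15), with the microtubule-associated Map1s (-1.05 and -0.78, edgeR adjusted p = 3.3e-14 and 9.1e-11) and Map4 (-0.74 and -0.85, edgeR adjusted p = 5e-11 and 6.1e-12). The AAA protein Fignl1 (1.27, edgeR adjusted p = 1e-12) and the mitotic depolymerase Kif2c (0.88, edgeR adjusted p = 1.2e-10) were higher in 0.3% FBS. Serum raised Mapre1, which encodes the plus-end protein EB1, with both siRNAs (0.84 and 0.80, edgeR adjusted p = 6.7e-13 and 3.9e-12). In all, serum raised 7 and lowered 6 with control siRNA and raised 10 and lowered 10 with Lap2 siRNA, against 3 and 11, and 3 and 15, with total counts and 11 and 6, and 9 and 10, without that replicate. The shares called with serum were 38.2% and 58.8%, against 29.5% and 33.2% of all genes. Under total counts 8.74% and 8.88% of all genes were higher with serum and 31.3% and 31.9% lower.

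Of 13 genes of the γ-tubulin complex, which nucleates microtubules, 12 were tested, and 66.7% were called with Lap2 siRNA in 0.3% FBS and 16.7% in 15% FBS, where 36.5% and 23.4% of all genes were. Lap2 siRNA raised 8 and lowered 0 in 0.3% FBS (median 0.29) and raised 2 and lowered 0 in 15% FBS (median 0.09). With total counts these splits were 8 and 0, and 5 and 0 (medians 0.40 and 0.17), and the first was 8 and 1 without replicate 1 of the serum-starved Lap2-depleted cells. Total counts called 25.1% of all genes higher and 14.1% lower in 0.3% FBS, and 18.6% and 8.99% in 15% FBS. Tubg1, which encodes γ-tubulin, rose from 350.6 ± 48.3 to 660.2 ± 69.5 normalized counts in 0.3% FBS (SD, n = 3 each, log2FC 0.91, SE 0.10, edgeR adjusted p = 4.8e-09) and by 0.48 in 15% FBS (edgeR adjusted p = 6e-04). Pcnt, for pericentrin, rose by 0.70 and 0.25 (edgeR adjusted p = 7.5e-09 and 0.02). Serum lowered 5 and raised 2 in Lap2-depleted cells and lowered 1 and raised 2 in control siRNA treated cells, against 9 and 0, and 5 and 1, with total counts and 7 and 1, and 1 and 3, without replicate 1 of the serum-starved Lap2-depleted cells. These were 58.3% and 25% of the list, against 33.2% and 29.5% of all genes. For serum, total counts called 31.9% of all genes lower in Lap2-depleted and 31.3% in control siRNA treated cells. Of the other members of the superfamily, serum lowered Tube1 with both siRNAs (log2FC -0.37 and -0.39, edgeR adjusted p = 0.023 and 0.015), and Lap2 siRNA lowered Tubd1 in 15% FBS (log2FC -0.78, edgeR adjusted p = 0.019).

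Mitotic genes moved with Lap2 depletion in these libraries, and the values are given beside the tubulin genes because several tubulin isotypes are known from dividing cells. All 15 were higher with Lap2 siRNA in 0.3% FBS (median log2FC 0.85, Mki67 1.43, edgeR adjusted p = 2.2e-16), where 17.8% of all genes were, and all 15 were lower with serum in Lap2-depleted cells (median -0.75), where 14.9% of all genes were. Without replicate 1 of the serum-starved Lap2-depleted cells these counts were again 15 and 15, with medians of 0.92 and -0.76. Their summed level was 16135 ± 852 and 17485 ± 480 normalized counts in control siRNA treated cells and 30734 ± 2034 and 18982 ± 707 in Lap2-depleted cells (SD, n = 3 each), with Top2a the most abundant (mean 4975) and 0 of the 15 at 0. In 15% FBS, 6 were higher and 2 lower with Lap2 siRNA (median 0.23), or 53.3% called against 23.4% of all genes. With control siRNA, serum raised 4 and lowered 0 (26.7% called, against 29.5% of all genes). With total counts it raised 0 and lowered 5, where this scaling called 31.3% of all genes lower. Tuba1b and Tubb4b had their highest mean levels, and the γ-tubulin complex its highest summed counts, in the same serum-starved Lap2-depleted cells, while Tuba1a, Tubb2a, Tubb2b, Tubb3 and also Tubb5 had their lowest there. For Tubb4b these libraries (4018, 3711 and 3546) overlapped with those of serum-stimulated control siRNA treated cells (3715, 3644 and 3669). Its place as the highest thus rests on replicate 1, the library that differed most from its group. For Tubb5, Lap2 siRNA gave -0.07 in 0.3% FBS and serum 0.05 in Lap2-depleted cells, neither called (edgeR adjusted p = 0.37 and 0.57). With total counts both values changed sign (0.04 and -0.18). The part of the mitotic genes in these results was not tested.

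Fibroblast markers moved as well, with 90% and 80% of the 10 called with Lap2 siRNA in 0.3% and 15% FBS, where 36.5% and 23.4% of all genes were, and 90% and 50% with serum in Lap2-depleted and control siRNA treated cells, where 33.2% and 29.5% were. With Lap2 siRNA, 7 of the 10 were lower and 2 higher in 0.3% FBS (median -0.49) and 8 lower and 0 higher in 15% FBS (median -0.37), led in both by Col3a1 with log2FC of -1.67 and -0.87 (edgeR adjusted p = 1.6e-18 and 1.4e-11). Pdgfra came next in 0.3% FBS (-1.61, edgeR adjusted p = 2.3e-16), while in 15% FBS its value of -0.42 (edgeR adjusted p = 0.00027) was smaller than those of Col1a1 (-0.58) and Thy1 (-0.56). Serum raised 6 and lowered 3 in Lap2-depleted cells and raised 3 and lowered 2 in control siRNA treated cells, against 4 and 3, and 2 and 5, with total counts, under which 31.9% and 31.3% of all genes were lower. For Lap2 siRNA, total counts gave 6 lower and 3 higher in 0.3% FBS and 6 lower and 2 higher in 15% FBS. Of all genes, this scaling called 14.1% lower and 25.1% higher in 0.3% FBS, and 8.99% and 18.6% in 15% FBS. Without replicate 1 of the serum-starved Lap2-depleted cells, 6 were lower and 3 higher with Lap2 siRNA in 0.3% FBS and 8 and 2 in 15% FBS. The summed level of the 10 was 883612 and 951445 normalized counts in control siRNA treated cells and 602294 and 693628 in Lap2-depleted cells, and none was at 0 (0 of 10). In the interaction 3 of the 10 were higher, 2 lower and 5 not called, where 7.09% of all genes were higher and 6.51% lower (13.6% called). Pdgfra was at 1.20 and Col3a1 at 0.79, and Fn1 at -0.61 and Thy1 at -0.38 in the other direction (edgeR interaction test, adjusted p = 5.8e-09, 4.3e-07, 6.6e-05 and 0.0075). Of 6 skeletal muscle markers, 3 were at 0 in every library and 3 were tested, of which 2 were lower with Lap2 siRNA in 0.3% FBS and 1 in 15% FBS, where 18.6% and 12.1% of all genes were, and their summed level was 116.1 and 109 in control siRNA treated cells and 23.26 and 63.7 in Lap2-depleted cells. Most of this sum was Tnnt3, with means of 100.8 and 98.98, and 17.2 and 58.88, in the same order. Myh3, named after its values were seen, was 1 of the 2 lower in 0.3% FBS but averaged only 3.71 with control siRNA and 0 with Lap2 siRNA. DESeq2 called only 1 lower there. Of the epithelial and the immune or endothelial markers, 0 of 3 and 0 of 4 tested were called in any of the 5 contrasts, where 13.6% to 36.5% of all genes were. With total counts, serum lowered Cdh1 in control siRNA treated cells (-1.32, edgeR adjusted p = 0.046) and Cd68 in Lap2-depleted cells (-0.69, edgeR adjusted p = 0.033). This scaling called 31.3% and 31.9% of all genes lower there. The part of the fibroblast and muscle markers in the tubulin results was not tested.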

How the data were processed

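RNA was measured in 12 libraries of NIH 3T3 cells, 4 groups of 3 as the labels assign them. The authors aligned reads with TopHat2 to mm10 and deposited whole-number counts per gene from HTSeq, with versions, gene annotation, strand setting and treatment of reads with several matches not given in the sources used here. The labels also name DESeq2. All 12 tables list the same 49671 genes, and 0 columns of values per sample were left unused.

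The deposited counts were fitted with edgeR 4.0.16 (limma 3.58.1, R 4.3.3): TMM factors, genes with more than 1 count in 3 or more libraries, 4 group means, the quasi-likelihood test and Benjamini-Hochberg adjustment at 0.05 over 18668 genes in each of 5 contrasts. SEs came from the F statistic. Alternatives were DESeq2 1.42.0, total-count and upper-quartile scaling, other filters, smaller fits, a replicate block, a stricter threshold and each library left out. In simulated data for Lap2 siRNA in 0.3% FBS (18668 genes, 200 changed by a log2FC of 1), 192 (96%) were recovered and 6 unchanged genes were called. Genes with low mean counts were left out of the changed ones, and all changes were increases. The recovery thus covers neither the lowest genes nor the choice of scaling. With 3 libraries against 3, an exact permutation test of a single value cannot give a p under 0.1, so none is reported.

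The tubulin genes and gene lists were chosen with earlier results of these data known. From a list, genes were named by rule: up to 5 with the largest log2FC per contrast among those called with a mean of 100 normalized counts or more, along with all genes of the tubulin superfamily, and for each tubulin gene the 3 most correlated genes. Values of a gene named in 1 contrast are also given in the others, and the counts of list genes without a single library were added after the data had been seen. Lengths, positions and shared windows came from GENCODE M21 (mm10), whose gene starts matched those of 46355 of 49412 genes in common, promoters from RefSeq. Python 3.11.15, pandas 2.3.3, numpy 2.4.6 and matplotlib 3.10.9 were used.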

Additional observations from a re-analysis of the deposited data

Results flagged for a closer look

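A total of 6 of the 10 tubulin genes responded differently to Lap2 siRNA in serum-starved and serum-stimulated cells by edgeR's interaction test, which is why they are listed, where 13.6% of all tested genes passed (7.09% higher, 6.51% lower). The interaction, as a difference of log2FC, was -0.38 for Tuba1b (adjusted p = 0.011), -0.60 for Tuba1c (adjusted p = 9.9e-06) and -0.34 for Tubb4b (adjusted p = 0.014). These α and β genes were higher with Lap2 siRNA in serum-starved cells, and in serum-stimulated cells Tuba1c was lower and the values of Tuba1b and Tubb4b (-0.00 and -0.11) did not pass the test. The interaction was 0.43 for Tubb2a (adjusted p = 0.00045), 1.12 for Tubb2b (adjusted p = 7.3e-09) and 1.17 for Tubb3 (adjusted p = 0.016). These β genes were lower with Lap2 siRNA in both conditions, and by less after serum.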

How the results depend on the processing

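Of the 50 log2FC of the tubulin genes (10 genes, 5 contrasts), all kept their direction and their side of the threshold with edgeR's filterByExpr, with a count above 1 in every library and with the replicate number as a block, which left the numbers of members called at 7, 7, 8, 7 and 6. The replicate numbers share only a number: deviations from the group means of libraries with the same number correlated at -0.034 to 0.043. Scaling to total counts changed most: 4 members were called for serum in control siRNA treated cells, and values changed sign for Tuba1b (-0.098), Tubb2b (-0.158), Tubb3 (-0.156), Tubb4b (-0.01) and Tubb5 (-0.041) there, for Tuba4a (-0.11) and Tubb5 (-0.183, adjusted p = 0.0075 by edgeR) with serum in Lap2-depleted cells, for Tubb5 with Lap2 siRNA in 0.3% FBS (0.043) and for Tuba1b in 15% FBS (0.083). This scaling called 40.1% of all genes for serum in control siRNA treated cells. Over all genes, the share of called genes that were higher with serum moved from 52.9% and 55.2% to 21.8% and 21.8%, and with Lap2 siRNA from 48.9% and 48.6% to 64% and 67.4%. With upper-quartile scaling these serum shares were 36% and 37.7%, and values changed sign for Tubb2b (-0.047) and Tubb3 (-0.046) with control siRNA and Tubb5 (-0.063) with Lap2 siRNA. Fitting only the compared groups turned Tubb6 with Lap2 siRNA in 0.3% FBS to -0.004. At an adjusted p under 0.01, 3 members were called in the interaction (Tuba1c, Tubb2a and Tubb2b). Calls were also lost for Tubb4b and Tubb5 with serum and control siRNA (edgeR adjusted p = 0.023 and 0.019). The same held for Tubb5 with Lap2 siRNA in 15% FBS (edgeR adjusted p = 0.011). The share of all genes at that threshold is not given here, so these calls have no background beside them. DESeq2 kept 48 of 50 and called Tubb5 (-0.144) and Tubb6 (-0.264) in the interaction, and without a filter the interaction of Tuba4a was called (-0.423). Where not built into the alternative, the cause was not tested.

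Leaving out each library in turn gave 5 to 7 members called for serum with control siRNA, 7 to 8 with Lap2 siRNA, 8 to 8 for Lap2 siRNA in 0.3% FBS, 6 to 7 in 15% FBS and 5 to 8 for the interaction. The share of all genes called also moves with the library left out. Without replicate 1 of the serum-starved Lap2-depleted cells it was 19.1% for the interaction, against 13.6% with all libraries. For the other omissions this share is not given here, so the ranges have no background beside them. Signs turned only for values near 0, which ranged from -0.094 to 0.188 for Tubb3 with serum and control siRNA, -0.033 to 0.108 for Tubb6 with Lap2 siRNA in 0.3% FBS, -0.022 to 0.002 for Tuba1b in 15% FBS and -0.008 to 0.095 for the interaction of Tuba1a. Shares of raw counts in place of counts per kilobase were 72.3%, 64.6%, 77.1% and 67.2% for Tubb5 and 56.2%, 52.4%, 35.7% and 41.0% for Tuba1a (control siRNA in 0.3% and 15% FBS, then Lap2 siRNA). Depth limits Tubb3 most, with 11 to 16 counts per library in serum-starved Lap2-depleted cells.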
